A study of Mus musculus with 50 samples.

Results

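The genes described here are 9 enzymes and transporters that bring fructose into the hepatocyte, make glucose, and store or release glycogen: Khk, Slc2a5, Slc2a2, G6pc, Pck1, Fbp1, Gys2, Pygl and Pfkfb1. They were chosen by gene symbol, and all 9 were found among the 45792 genes of the count table. RNA was measured by RNA-seq in livers and liver tumours of C3H/He mice aged 48 weeks. The mice were male and ate a control diet or the ALIOS diet, the American lifestyle diet, which is rich in trans fat and comes with fructose in the drinking water. Some tumours came from mice given DEN (diethylnitrosamine, a liver carcinogen), and those that arose without it are called spontaneous here.

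The libraries fell into 6 groups. Non-tumour livers numbered 12 from mice on control food (N1 to N12) and 11 from mice on the ALIOS diet (N13 to N23), called control livers and ALIOS livers below. The spontaneous tumours were 13 on the ALIOS diet (T1 to T6 and T8 to T14) and 1 on the control diet (T7). Of the DEN tumours, 8 came from the ALIOS diet (T15, T16 and T22 to T27) and 5 from the control diet (T17 to T21). No non-tumour liver of a DEN-treated mouse was among the libraries, so the effect of DEN on the liver and that of the tumour cannot be told apart where DEN tumours are set against livers. The methods describe an overnight fast and a glucose injection for a tolerance test, with killing afterwards, but not how soon it came or for which of these libraries. Transcripts such as Pck1 and G6pc follow fasting and glucose, and neither this timing nor the dose of DEN is in the labels.

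As background, the liver takes up fructose and glucose through membrane carriers, traps fructose by phosphorylation and splits it into pieces that enter glycolysis, fat synthesis or glycogen. Between meals it releases glucose, first from glycogen and then from newly made glucose, and both routes end at glucose 6-phosphatase. Insulin, glucagon, glucocorticoids and a sugar-sensing factor set the transcription of many of these genes, and most of the 9 are far more active in hepatocytes than in other liver cells.

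Between 23968280 and 35091968 reads were counted per control liver and between 27602194 and 34682875 per ALIOS liver. The ALIOS spontaneous tumours used in the comparisons had 23798251 to 38199013, T7 had 34140765, the ALIOS DEN tumours had 28727716 to 45751398, and the control DEN tumours had 29683887 to 36606868. Levels are given as CPM, counts per 1000000 reads after TMM scaling of library sizes, and levels of different genes are compared only per kb of exon. The lowest level met among the 9 genes, Slc2a5 in T24, still rested on 44 counts, so counting error was small beside the differences between libraries. In bulk tissue, fewer hepatocytes and less RNA per hepatocyte cannot be told apart, which holds for every difference below.

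The hepatocyte label was checked on 8 markers, whose most abundant gene in each of these groups was Alb. Their summed level had a median of 130100 CPM in control livers, 115300 in ALIOS livers, 190000 in ALIOS spontaneous tumours, 185200 in ALIOS DEN tumours and 198000 in control DEN tumours. This sum is mostly Alb, which was higher in the spontaneous tumours than in ALIOS livers (log2 fold change 0.79, SE 0.20, adjusted p = 0.00247). The list did not move as 1 group: of the 8 markers, 2 were higher and 4 lower in spontaneous tumours, 2 and 3 in ALIOS DEN tumours, each against ALIOS livers, and 2 and 2 in control DEN tumours against control livers. The median log2 fold changes of the list were -0.27, -0.12 and -0.31 in that order. Adipocyte markers, 4 genes, reached at most 0.127 CPM in sum in any of the 49 libraries, with Lep at 0 in all of them.

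Several libraries stood apart. T1, labelled a spontaneous tumour, held kidney RNA: its 8 kidney markers summed to 44820 CPM (Kap, the most abundant, 35350) and its 8 hepatocyte markers to 749.6. By the rule that chose the genes and groups it was left out of every comparison and is described separately, its CPM being counts over its library total without TMM scaling. T24, an ALIOS DEN tumour, had the lowest summed hepatocyte markers of the other 49 libraries, 79870 CPM, the lowest periportal markers (118.7, against a group median of 1444) and the highest pericentral markers (26750, against a group median of 1133). Its cholangiocyte markers (60.46) and stellate cell markers (764.1) were the highest of its group.

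The other libraries that stood apart were chosen after their values were seen. They were the spontaneous tumours T2 and T6 and the ALIOS DEN tumours T23 and T25, picked because several of their values lay near those of the livers. Their hepatocyte marker sums were 81570, 96820, 90490 and 101000 CPM in that order. Each of them lay low within its group for the isozyme RNAs Pck2 and Pygb, described below. Their pericentral marker sums were 4536, 2789, 3693 and 5460, and their macrophage marker sums were 407.4, 370.7, 492.4 and 279.9. The number of tumour cells in these samples was not tested. Since they were picked by their values, leaving them out shifts the results by the choice itself. Values without T23 and T25 are therefore descriptions and are given without a p-value. Calls, lost calls and numbers of genes passing a threshold without them are descriptions too, and none of them counts as a test. For the 9 genes, calls that rest on T24 or on T23 and T25 are given with and without them.

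Promoter sequences were looked up for all 9 genes in RefSeq (GRCm38.p6), from 250 bases before to 50 bases after the start site, and 8 genes had an entry. Gys2 had none. Pfkfb1 had 4 entries and the others 1 each. The 5 sequences below are shown because these genes, with 1 entry each, fell together in every comparison of tumours with livers. Khk lies at chr5:30921309-30921608 (+), Slc2a5 at chr4:150119094-150119393 (+), Pck1 at chr2:173152823-173153122 (+), Fbp1 at chr13:62888233-62888532 (-) and Pygl at chr12:70227634-70227933 (-). Each runs 5′ to 3′ on the strand of the gene, and capitals mark the letters of the motifs named after them.
Khk: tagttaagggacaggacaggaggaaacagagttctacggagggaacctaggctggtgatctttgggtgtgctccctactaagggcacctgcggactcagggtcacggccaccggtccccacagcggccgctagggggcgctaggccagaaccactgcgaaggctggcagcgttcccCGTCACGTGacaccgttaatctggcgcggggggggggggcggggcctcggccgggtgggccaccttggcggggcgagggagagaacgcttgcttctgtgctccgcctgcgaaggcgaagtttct
Slc2a5: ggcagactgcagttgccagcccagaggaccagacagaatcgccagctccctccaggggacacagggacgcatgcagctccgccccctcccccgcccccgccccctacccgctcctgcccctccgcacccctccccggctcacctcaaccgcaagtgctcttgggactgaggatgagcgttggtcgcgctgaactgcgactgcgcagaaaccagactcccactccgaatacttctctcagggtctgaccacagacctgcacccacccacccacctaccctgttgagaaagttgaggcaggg
Pck1: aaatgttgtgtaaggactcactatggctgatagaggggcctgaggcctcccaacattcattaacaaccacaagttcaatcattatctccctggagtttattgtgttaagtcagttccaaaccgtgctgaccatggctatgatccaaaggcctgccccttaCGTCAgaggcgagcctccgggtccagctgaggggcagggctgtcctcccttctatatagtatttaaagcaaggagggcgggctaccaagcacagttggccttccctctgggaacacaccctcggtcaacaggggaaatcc
Fbp1: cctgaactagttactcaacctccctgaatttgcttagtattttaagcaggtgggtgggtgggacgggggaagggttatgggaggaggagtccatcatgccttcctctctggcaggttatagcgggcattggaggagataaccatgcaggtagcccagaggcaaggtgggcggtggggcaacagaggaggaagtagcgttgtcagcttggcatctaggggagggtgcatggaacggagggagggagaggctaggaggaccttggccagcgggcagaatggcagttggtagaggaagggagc
Pygl: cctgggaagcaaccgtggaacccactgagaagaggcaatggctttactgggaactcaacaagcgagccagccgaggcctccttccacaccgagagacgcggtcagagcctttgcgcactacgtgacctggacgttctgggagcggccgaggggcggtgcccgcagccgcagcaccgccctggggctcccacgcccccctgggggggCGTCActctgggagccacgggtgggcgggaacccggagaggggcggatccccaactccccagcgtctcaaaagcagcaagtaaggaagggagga

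The motifs were searched for on both strands. Khk held the E-box, its first base at position -71 from the start site, and it overlapped the core of the cAMP response element, read on the other strand, whose first base was at -74. Pck1 held this core at -90 and Pygl at -44. In the G6pc promoter at chr11:101367466-101367765 (+), not printed here, a TATA box began at -29, and 1 of the 4 Pfkfb1 entries held one at -193.

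Such matches were not rare in the table. Among its 32851 promoters, 7.15% held the E-box, whose letters are CACGTG, and 20.8% held the core of the cAMP response element, TGACG. The forkhead core TGTTTAC was in 3.65%, the HNF4 core CAAAGTCCA in 0.475% and the TATA box TATAAA in 13.6%. The printed promoters of Slc2a5 and Fbp1, and that of Slc2a2, held none of the 5 motifs, which says only that these letters are not in those windows.

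In control livers the 9 transcripts differed widely in level. By median CPM per kb, Fbp1 was the highest at 542.2, followed by Pck1 at 474.3 and Khk at 292.6. G6pc had a median of 97.58 per kb, Slc2a2 93.74, Gys2 86.40 and Pygl 61.02. The lowest were Pfkfb1 at 16.13 and Slc2a5 at 5.548, so the fructose carrier of the gut was present in liver at a small share of the level of the general carrier Slc2a2.

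Diet was compared first, since the ALIOS diet supplies fructose. In livers, 0 of the 9 genes differed between the diets with edgeR at an adjusted p under 0.05, while 6.73% of the 13723 genes tested were higher and 4.51% lower on the ALIOS diet. At an unadjusted p under 0.05, 2 genes passed with edgeR (G6pc and Pfkfb1), and DESeq2 and limma voom called 0 as well, with 2 and 1 at the unadjusted threshold. Over all genes that threshold was passed by 29.3% with edgeR, 30.8% with DESeq2 and 29.6% with limma voom, so 2 of 9 was no more than the share of all genes. Khk had a log2 fold change of -0.01 (SE 0.16, adjusted p = 0.987, n = 11 and 12) and Slc2a5 one of 0.08 (SE 0.17, adjusted p = 0.797), so neither the kinase nor the carrier of fructose was measurably higher on the diet with fructose.

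Across tumours the picture was different. Tumours were compared with livers of the same diet in 3 comparisons. The spontaneous tumours (12, without T1) and the ALIOS DEN tumours (8) were each set against the same 11 ALIOS livers, so these comparisons share their reference, and the control DEN tumours (5) were set against the 12 control livers. In the spontaneous tumours, 7 of the 9 genes were lower and 0 higher, with 25.9% of 14183 genes lower and 26.9% higher. The ALIOS DEN tumours had 7 lower and 0 higher, with 19.8% of 14434 genes lower and 27.7% higher. The control DEN tumours had 7 lower and 1 higher, with 24.4% of 14731 genes lower and 27.3% higher.

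The median log2 fold change of the 9 genes was -1.08, -0.77 and -1.09 in these comparisons, in that order, against 0.01, 0.08 and 0.03 over all genes tested. Khk, Slc2a5, Pck1, Fbp1, Pygl and Pfkfb1 were lower in all 3, G6pc in 2 and Slc2a2 in 1, and Gys2 was higher in 1. The paragraphs that follow take the genes by role.

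**Figure D1:**
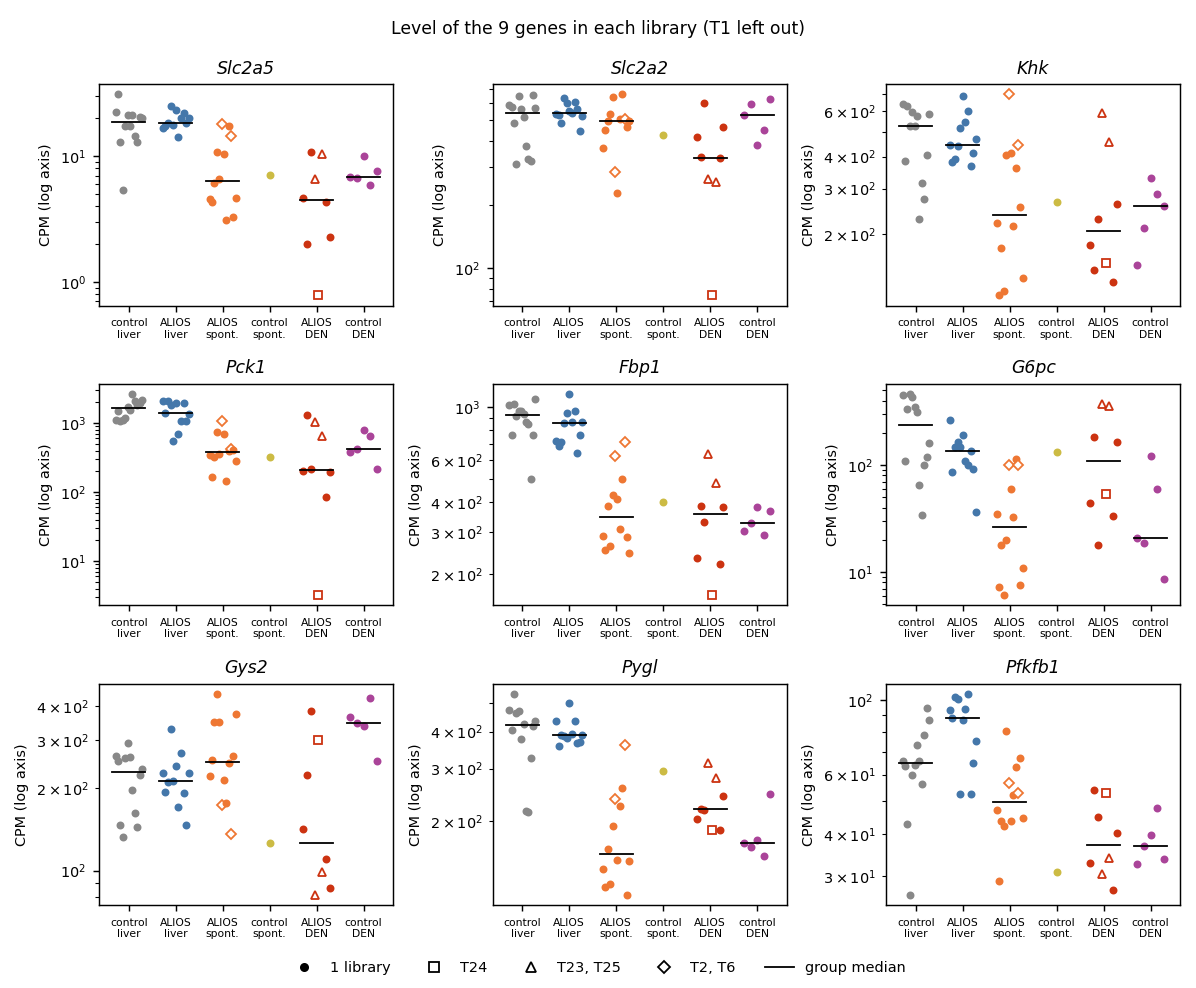
Level of each of the 9 genes in CPM (log axis) in the 49 libraries without T1, by group; each point is 1 library, open symbols mark T24, T23 and T25, and T2 and T6, and the line is the group median. Fbp1 lies at 497.8 or more in every control liver and at 380.5 or less in every control DEN tumour, while Gys2 keeps or exceeds the level of the livers in most tumours outside the ALIOS DEN group.

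Khk (chr5:30921431-30931248, GRCm38) encodes ketohexokinase, which phosphorylates fructose in the first step of its breakdown. In control livers its level ran from 228.5 CPM (N5) to 639.6 (N1) with a median of 525.9, and in ALIOS livers from 366.8 (N21) to 687.4 (N18) with a median of 444.1. The ALIOS spontaneous tumours ran from 114.9 (T11) to 698.7 (T2) with a median of 236.8, and the ALIOS DEN tumours from 129.8 (T26) to 593.3 (T23) with a median of 204.1. Among control DEN tumours the values were 151.5 (T17), 210.5 (T18), 331.0 (T19), 286.0 (T20) and 256.1 (T21).

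Among the spontaneous tumours 8 of 12 lay below every ALIOS liver, and T2 lay above them all. Khk fell in these tumours (log2 fold change -0.68, SE 0.25, adjusted p = 0.0257), and 10 of 12 lay below the ALIOS liver median. The call was lost without N18 (adjusted p = 0.0634), without T12 (0.0729) or without T13 (0.0547), with upper quartile scaling (0.0508), with library totals (0.114) and with no count filter (0.0511), and the log2 fold change was then between -0.64 and -0.49.

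In the ALIOS DEN tumours 6 of 8 lay below every ALIOS liver, T23 and T25 being the exceptions. Khk had a log2 fold change of -0.77 (SE 0.26, adjusted p = 0.0202), and without T23 and T25 it was -1.33, a size that follows in part from their being picked. Without T24 it was -0.68 (SE 0.26, adjusted p = 0.0343). The call was lost with library totals (-0.62, adjusted p = 0.0571). In the control DEN tumours, all 5 of which lay below the control liver median, it was -0.90 (SE 0.24, adjusted p = 0.00456). By group mean of log2 CPM the order was ALIOS livers, control livers, spontaneous tumours, control DEN tumours and ALIOS DEN tumours, and no neighbours in it differed by more than the larger of their SDs.

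Slc2a5 (chr4:150119283-150144169) encodes a fructose carrier, best known from the gut. Its level was low in all groups: 5.443 (N12) to 31.05 CPM (N10) in control livers, median 18.88, and 14.25 (N19) to 25.12 (N16) in ALIOS livers, median 18.57. In ALIOS spontaneous tumours it ran from 3.103 (T4) to 17.95 (T2), median 6.37, and in ALIOS DEN tumours from 0.7813 (T24) to 10.89 (T22), median 4.47. Control DEN tumours had 6.85 (T17), 6.702 (T18), 10.04 (T19), 5.904 (T20) and 7.665 (T21).

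Every ALIOS DEN tumour lay below every ALIOS liver, 9 of the 12 spontaneous tumours did, and each control DEN tumour lay below the control liver median but above N12. The log2 fold change was -1.16 (SE 0.27, adjusted p = 0.000905) in spontaneous tumours, -1.83 (SE 0.35, adjusted p = 0.000328) in ALIOS DEN tumours and -1.24 (SE 0.27, adjusted p = 0.000628) in control DEN tumours. Without T24 the ALIOS DEN value was -1.66 (SE 0.28, adjusted p = 8.54e-05). Ordered by mean log2 CPM, ALIOS livers came before control livers, control DEN tumours, spontaneous tumours and ALIOS DEN tumours, and only the step from control livers to control DEN tumours exceeded the larger SD (1.20 against 0.62).

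Slc2a2 (chr3:28697903-28731359) encodes the main glucose carrier of hepatocytes, which also carries fructose. It was the steadiest of the 3 genes of sugar entry, with medians of 539.4 CPM in control livers, 542.0 in ALIOS livers and 493.0 in ALIOS spontaneous tumours. The ALIOS DEN tumours ran from 74.54 (T24) to 602.5 (T22), median 332.8, and 6 of 8 lay below every ALIOS liver. The control DEN tumours, from 382.4 (T19) to 629.0 (T21), lay within the range of the control livers.

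Slc2a2 was called in the ALIOS DEN tumours only among the 3 comparisons with livers (log2 fold change -0.61, SE 0.24, adjusted p = 0.0421). It was -0.46 without T24 (SE 0.15, adjusted p = 0.0135). Without T16, T23, T25 or T26 the adjusted p was 0.0575, 0.0591, 0.0620 and 0.0549, and with library totals 0.0599. With both T23 and T25 left out the log2 fold change was -0.50, and Slc2a2 was not called. In the spontaneous tumours the log2 fold change was -0.21 (SE 0.14, adjusted p = 0.188) and in control DEN tumours 0.11 (SE 0.19, adjusted p = 0.653). The order of means was ALIOS livers, control DEN tumours, control livers, spontaneous tumours and ALIOS DEN tumours, with no step beyond the larger SD.

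Pck1 (chr2:173153048-173159273) encodes the cytosolic phosphoenolpyruvate carboxykinase, which commits pyruvate-derived carbon to gluconeogenesis. Control livers held 1074 (N11) to 2621 CPM (N5), median 1626, and ALIOS livers 558.4 (N17) to 2102 (N15), median 1390. Spontaneous tumours on the ALIOS diet ran from 142.8 (T4) to 1087 (T2), median 378.0, and the ALIOS DEN tumours from 3.214 (T24) to 1311 (T16), median 211.0. For the control DEN tumours they were 378.0 (T17), 422.7 (T18), 791.0 (T19), 650.0 (T20) and 212.9 (T21).

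All 5 control DEN tumours lay below every control liver, 9 of the 12 spontaneous tumours and 5 of the 8 ALIOS DEN tumours below every ALIOS liver, and no tumour of these 3 groups lay above the liver median of its diet. The log2 fold change was -1.71 in spontaneous tumours (SE 0.30, adjusted p = 5.28e-05) and -1.71 in control DEN tumours (SE 0.29, adjusted p = 5.7e-05).

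In ALIOS DEN tumours Pck1 had a log2 fold change of -1.60 with a wider error (SE 0.63, adjusted p = 0.0435). Without T24 it was -1.41 (SE 0.47, adjusted p = 0.0172), and without T23 and T25 it was -2.06. The call was lost without T15 (adjusted p = 0.0709), T22 (0.0763), T26 (0.0673) or T27 (0.0773), with log2 fold changes from -1.52 to -1.48. In the order of means, control livers, ALIOS livers, control DEN tumours, spontaneous tumours and ALIOS DEN tumours, only the step from ALIOS livers to control DEN tumours exceeded the larger SD (1.60 against 0.74).

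Fbp1 (chr13:62864753-62888282) encodes fructose bisphosphatase, the enzyme that reverses the committed step of glycolysis. Its level was 497.8 (N7) to 1085 CPM (N9) in control livers, median 922.8, and 639.2 (N21) to 1132 (N18) in ALIOS livers, median 861.0. In ALIOS spontaneous tumours it ran from 243.6 (T9) to 713.5 (T6), median 345.6, and in ALIOS DEN tumours from 162.6 (T24) to 638.2 (T23), median 355.7. In control DEN tumours the levels were 301.0 (T17), 327.1 (T18), 380.5 (T19), 289.5 (T20) and 367.9 (T21).

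Fbp1 separated tumours from livers best of the gluconeogenesis genes: no DEN tumour of either diet reached a liver of its diet, and 11 of 12 spontaneous tumours lay below every ALIOS liver, T6 being the exception. The log2 fold change was -1.08 in spontaneous tumours (SE 0.17, adjusted p = 1.89e-05), -1.17 in ALIOS DEN tumours (SE 0.21, adjusted p = 0.00017) and -1.37 in control DEN tumours (SE 0.15, adjusted p = 4.78e-07). The ALIOS DEN value without T24 was -1.06 (SE 0.18, adjusted p = 0.000119). Means fell in the order control livers, ALIOS livers, spontaneous tumours, control DEN tumours and ALIOS DEN tumours, and the step from ALIOS livers to spontaneous tumours was the only one beyond the larger SD (1.16 against 0.52).

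G6pc (chr11:101367561-101377903) encodes the catalytic subunit of glucose 6-phosphatase, which releases free glucose. It varied most within the livers: from 34.48 (N6) to 459.3 CPM (N12) in control livers, median 235.6, and from 36.19 (N23) to 262.7 (N13) in ALIOS livers, median 135.1. The control livers fell apart by level, with N1 to N4, N11 and N12 at 311.4 or more and N5 to N10 at 159.7 or less. On the ALIOS diet 10 of 11 livers lay below the control median, and the log2 fold change of diet was -0.88 (SE 0.37, adjusted p = 0.12).

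The ALIOS spontaneous tumours had 6.08 (T13) to 113.5 CPM of G6pc (T5), median 26.36. In ALIOS DEN tumours it ran from 18.01 (T22) to 369.3 (T23), median 108.4, with T25 at 359.6. Control DEN tumours had 20.75 (T17), 18.80 (T18), 120.6 (T19), 60.16 (T20) and 8.591 (T21). All 12 spontaneous tumours lay below the ALIOS liver median and all 5 control DEN tumours below the control liver median, while the ALIOS DEN tumours lay on both sides, 4 and 4.

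G6pc fell in spontaneous tumours (log2 fold change -1.64, SE 0.47, adjusted p = 0.00526) and in control DEN tumours (-2.37, SE 0.68, adjusted p = 0.00659). In ALIOS DEN tumours the log2 fold change was 0.26 (SE 0.48, adjusted p = 0.685), and without T23 and T25 it was -0.64. It was 0.38 without T24 (SE 0.49, adjusted p = 0.53) and -0.10 without T23. The means ran from control livers to ALIOS livers, ALIOS DEN tumours, control DEN tumours and spontaneous tumours, with no step beyond the larger SD. Whether the tumours of the DEN groups differ from each other in G6pc is taken up after the other genes.

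Gys2 (chr6:142422613-142473109) encodes the liver glycogen synthase and was the only one of the 9 genes with a call in the upward direction in these 7 comparisons. Control livers held 132.3 (N12) to 292.6 CPM (N3), median 229.6, and ALIOS livers 146.6 (N22) to 328.7 (N16), median 213.5. The ALIOS spontaneous tumours ran from 135.9 (T6) to 443.1 (T13), median 250.1, and the ALIOS DEN tumours from 81.49 (T23) to 383.0 (T22), median 126.2. The control DEN tumours had 366.0 (T17), 347.6 (T18), 337.1 (T19), 427.2 (T20) and 251.4 (T21).

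Of the 5 control DEN tumours 4 lay above every control liver, and Gys2 rose there (log2 fold change 0.74, SE 0.18, adjusted p = 0.00184). The spontaneous tumours had a log2 fold change of 0.28 (SE 0.17, adjusted p = 0.169), with 4 of 12 above every ALIOS liver. That value passed the threshold without T6 (0.40, adjusted p = 0.0332), T6 having the least Gys2 of the group, and with library totals (0.45, adjusted p = 0.0185). In ALIOS DEN tumours it was -0.25 (SE 0.27, adjusted p = 0.467), and leaving out single tumours gave -0.51 (without T22) to -0.14 (without T27), with -0.39 without T24, none of them called. In this group 5 of 8 lay below every ALIOS liver. By mean the order was control DEN tumours, spontaneous tumours, ALIOS livers, control livers and ALIOS DEN tumours, with no step beyond the larger SD.

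Pygl (chr12:70190811-70231488) encodes the liver glycogen phosphorylase, which breaks glycogen down. Its level was 213.7 (N6) to 536.1 CPM (N11) in control livers, median 420.7, and 358.7 (N14) to 497.8 (N18) in ALIOS livers, median 389.0. Spontaneous tumours on the ALIOS diet ran from 112.4 (T8) to 358.9 (T6), median 154.3, and the ALIOS DEN tumours from 185.8 (T26) to 312.6 (T23), median 218.8. The control DEN tumours had 167.8 (T17), 163.3 (T18), 171.5 (T19), 151.9 (T20) and 246.4 (T21).

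Every ALIOS DEN tumour and 11 of 12 spontaneous tumours lay below every ALIOS liver, and 4 of 5 control DEN tumours below every control liver. The log2 fold change was -1.11 in spontaneous tumours (SE 0.16, adjusted p = 6.65e-06), -0.73 in ALIOS DEN tumours (SE 0.10, adjusted p = 1.64e-05) and -1.09 in control DEN tumours (SE 0.20, adjusted p = 0.000142). Without T24 the ALIOS DEN value was -0.69 (SE 0.10, adjusted p = 1.84e-05). The synthase and the phosphorylase of liver glycogen thus moved in opposite directions in the control DEN tumours. By mean, ALIOS livers and control livers were followed by ALIOS DEN tumours, control DEN tumours and spontaneous tumours, and the step below control livers (0.75 against 0.43) and that below ALIOS DEN tumours (0.36 against 0.27) exceeded the larger SD.

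Pfkfb1 (chrX:150588229-150643878) encodes the liver form of the enzyme that makes and removes the bisphosphate signal switching between glycolysis and gluconeogenesis. Its exons overlap those of Apex2 on the opposite strand, so reads of Apex2 may be among its counts. The library kit was a stranded one, but whether the counting used the strand was left unsaid. It ran from 26.38 (N12) to 94.40 CPM (N8) in control livers, median 64.80, and from 52.46 (N17) to 104.1 (N20) in ALIOS livers, median 88.05. In spontaneous tumours on the ALIOS diet the median was 49.60, in ALIOS DEN tumours 37.06, and in control DEN tumours the levels lay between 32.50 (T17) and 47.83 (T20).

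No tumour on the ALIOS diet with or without DEN lay above the ALIOS liver median of Pfkfb1. The log2 fold change was -0.67 in spontaneous tumours (SE 0.15, adjusted p = 0.000495), -1.01 in ALIOS DEN tumours (SE 0.16, adjusted p = 4.51e-05) and -0.72 in control DEN tumours (SE 0.21, adjusted p = 0.0068). For ALIOS DEN tumours without T24 it was -1.08 (SE 0.16, adjusted p = 2.93e-05). For diet in livers it was 0.34 (SE 0.16, adjusted p = 0.166). Means fell from ALIOS livers to control livers, spontaneous tumours, ALIOS DEN tumours and control DEN tumours, and the step from spontaneous to ALIOS DEN tumours was just beyond the larger SD (0.39 against 0.38).

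**Figure D2:**
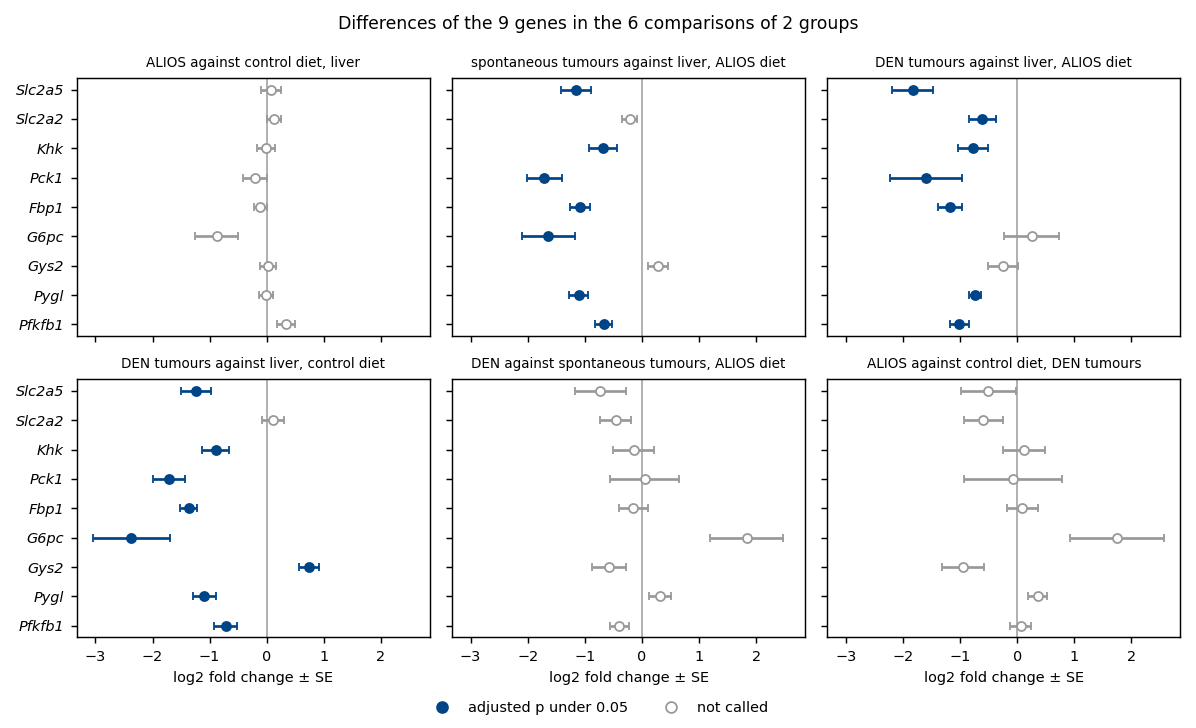
Log2 fold change (edgeR, bars are 1 SE) of the 9 genes in the 6 comparisons of 2 groups; filled points passed an adjusted p under 0.05. The comparisons of tumours with livers hold 7, 7 and 8 filled points, Gys2 in control DEN tumours being the only one to the right of 0 (0.74), and the others hold none.

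Counted by library, the ALIOS livers had 0 or 1 of the 9 genes below every control liver, beside 3.49% (N21) to 13.5% (N17) of 17728 genes kept by the count filter across these libraries. The ALIOS spontaneous tumours had 1 (T2, T5 and T6) to 6 (T9 and T11), the ALIOS DEN tumours 3 (T16 and T23) to 7 (T26), and the control DEN tumours 3 to 5. Over all genes the shares were 14.6% (T6) to 24.8% (T11), 15.9% (T23) to 27.5% (T24) and 21.3% (T21) to 24.8% (T20) in these groups. T2, T5 and T6, with 1 of 9, were the tumours whose share of the 9 genes was below that of all genes. The single spontaneous tumour on the control diet, T7, allowed no test. Its Pck1 (318.7 CPM), Fbp1 (399.8) and Gys2 (126.3) lay below every control liver, and the other 6 genes lay within their range, among them Khk at 264.9, Pygl at 294.2 and G6pc at 133.1.

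**Figure D3:**
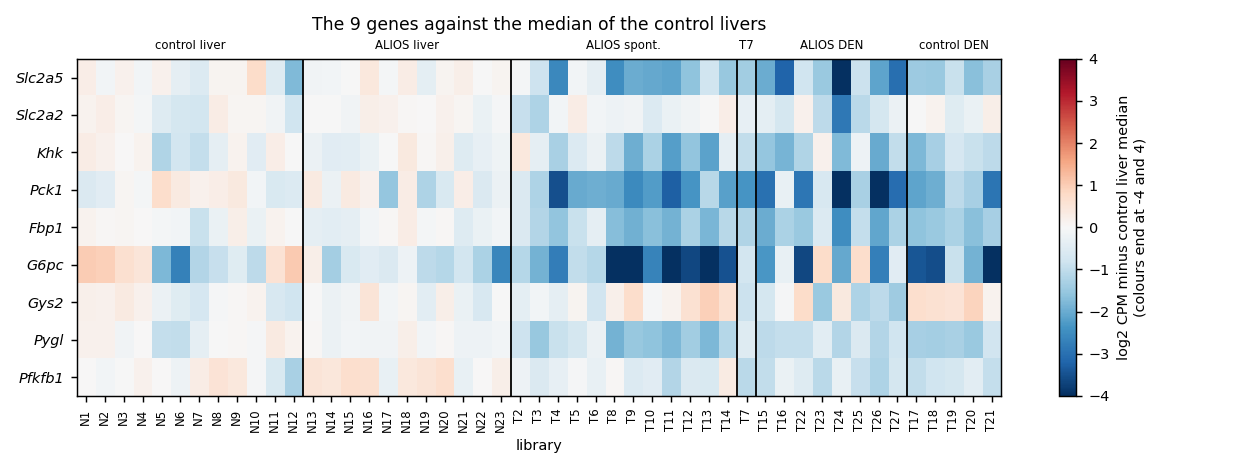
Level of the 9 genes in each of the 49 libraries as log2 CPM minus the median of the control livers, with colours ending at -4 and 4 and black lines between groups. Blue runs through the Slc2a5, Pck1, Fbp1 and Pygl of most tumours, while Gys2 is red in the control DEN tumours, and 8 values pass the lower end of the colours, Pck1 in T24 and T26, Slc2a5 in T24, and G6pc in T8, T9, T11, T13 and T21.

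The pathways were also counted on whole lists, which include those of the 9 genes that belong to them. These lists were written from general knowledge, but with earlier results of these data known. Over all genes tested, 26.9% were higher and 25.9% lower in spontaneous tumours, and 27.7% and 19.8% in ALIOS DEN tumours. In control DEN tumours these shares were 27.3% and 24.4%, and they stand beside the counts of every list below. Of 9 genes of fructose uptake and breakdown, 7 were lower and 1 higher in spontaneous tumours, 8 and 1 in ALIOS DEN tumours, and 6 and 1 in control DEN tumours. Without Slc2a5, Slc2a2 and Khk, described above, these were 5 and 1, 5 and 1, and 4 and 1 of 6. Sord, which turns sorbitol into fructose, had log2 fold changes of -1.38 (SE 0.18), -1.38 (SE 0.33) and -1.10 (SE 0.16) in that order of comparisons.

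The gene of this list that rose was Akr1b3, an aldose reductase that makes sorbitol from glucose. Its level had a median of 16.63 CPM in ALIOS livers, 36.15 in spontaneous tumours and 47.59 in ALIOS DEN tumours, and it ran up to 17.70 (N5) in control livers and from 43.48 (T18) to 53.59 (T20) in control DEN tumours. The log2 fold changes were 0.94 (SE 0.17, adjusted p = 7.3e-05), 1.40 (SE 0.19, adjusted p = 8.8e-06) and 1.96 (SE 0.15, adjusted p = 3.07e-09). So the enzymes on either side of sorbitol moved in opposite directions in each comparison of tumours with livers.

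Among the genes of gluconeogenesis, 5 were lower and 2 higher of 7 tested in spontaneous tumours, 4 and 2 of 8 in ALIOS DEN tumours, and 4 and 1 of 7 in control DEN tumours. Without Pck1, Fbp1 and G6pc the numbers were 2 and 2 of 4, 2 and 2 of 5, and 1 and 1 of 4. The first of these holds G6pc3 among the higher genes, a call that was not stable, as given below. Pcx, pyruvate carboxylase, had log2 fold changes of -0.57 (SE 0.09), -0.63 (SE 0.10) and -0.35 (SE 0.14, adjusted p = 0.0422), the last lost without T17, T19, T20 or T21 (adjusted p from 0.0503 to 0.0930) and with library totals (0.0875). Slc37a4, the carrier that brings glucose 6-phosphate to the phosphatase, had -0.87 (SE 0.14) in spontaneous and -1.06 (SE 0.17) in ALIOS DEN tumours.

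The direction was the opposite for Pck2, the mitochondrial form of the enzyme that Pck1 encodes. Per kb, Pck2 had a median of 0.210 CPM in control livers, 0.226 in ALIOS livers, 2.25 in spontaneous tumours, 1.74 in ALIOS DEN tumours and 2.17 in control DEN tumours. It rose in all 3 comparisons (log2 fold change 3.16, SE 0.38, adjusted p = 6.84e-07 in spontaneous tumours; 2.83, SE 0.31, adjusted p = 7.45e-07 in ALIOS DEN tumours; 3.33, SE 0.16, adjusted p = 3.29e-12 in control DEN tumours). Pck1 stayed the larger of the pair per kb in 48 of the 49 libraries: the Pck2 share of their summed level had a median of 0.0448% in control livers and 2.01% in spontaneous tumours, reached 6.75% in T11, and was above 50% only in T24 (78.4%).

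Fbp2, the muscle form of fructose bisphosphatase, was higher in ALIOS DEN tumours (log2 fold change 3.13, SE 0.73, adjusted p = 0.00167), largely in T24, where it made up 8.06% of the summed level per kb with Fbp1. Without T24 the log2 fold change was 1.13 (adjusted p = 0.0141). In the other 7 ALIOS DEN tumours Fbp1 made up at least 99% of that sum. G6pc3, the widely expressed glucose 6-phosphatase, had medians between 2.32 and 2.76 CPM per kb in these 5 groups. It was called higher in spontaneous tumours (log2 fold change 0.28, SE 0.12, adjusted p = 0.0464), but not with limma voom (adjusted p = 0.102), with all groups fitted together (0.186) or in 9 of 23 fits without a single library. Its share of the level with G6pc had a median of 5.16% in ALIOS livers and 22.03% in spontaneous tumours.

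In glycogen breakdown, too, isozymes moved in opposite directions, as Pck1 and Pck2 did. Pygb, the brain form of glycogen phosphorylase, had a median of 1.18 CPM per kb in control livers, 1.62 in ALIOS livers, 11.7 in spontaneous tumours, 12.7 in ALIOS DEN tumours and 12.4 in control DEN tumours. The log2 fold change was 2.54 (SE 0.31, adjusted p = 8.94e-07) in spontaneous tumours, 2.63 (SE 0.35, adjusted p = 7.91e-06) in ALIOS DEN tumours and 3.61 (SE 0.17, adjusted p = 2.3e-12) in control DEN tumours. Its share of the 3 phosphorylases per kb had a median of 1.96% in control livers and 2.65% in ALIOS livers, against 33.7%, 29.8% and 33.9% in the tumour groups, and reached 48.3% in T13.

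The Pygb share was 5.23% in T2, 7.96% in T6, 4.13% in T23 and 8.61% in T25, low values that were among those by which these tumours were picked. Pygb was also the gene of this list called for diet in livers (log2 fold change 0.69, SE 0.21, adjusted p = 0.035), a call lost with limma voom (adjusted p = 0.0581), with all groups fitted together (0.165) and without any of 8 single livers, N1, N3, N4, N11, N15, N17, N19 or N22 (0.0509 to 0.0845). Over the whole list of 9 glycogen breakdown genes, 2 were higher and 2 lower in spontaneous tumours, 1 and 2 in ALIOS DEN tumours, and 2 and 1 in control DEN tumours, Pygl being 1 of the lower genes each time. For glycogen synthase, Gys2 made up at least 97.4% of its level with Gys1 in each library.

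**Figure D4:**
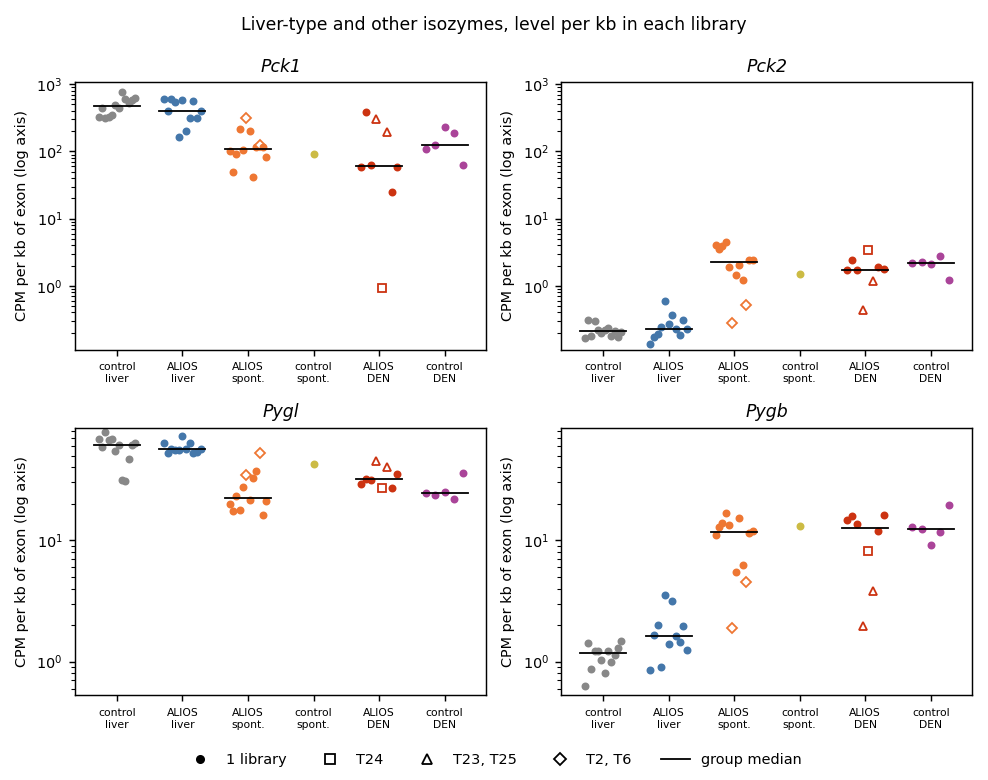
Level per kb of exon (CPM per kb, log axis) of the liver isozymes Pck1 and Pygl and of Pck2 and Pygb in the 49 libraries, by group, with medians as lines. Median Pygb is 1.18 in control livers and 12.4 in control DEN tumours, and T2, T6, T23 and T25 (open diamonds and triangles) lie low for Pck2 and Pygb within their groups.

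Of 14 glycogen synthesis genes, 2 were higher and 4 lower in spontaneous tumours and 3 and 6 in ALIOS DEN tumours, and 3 and 2 of 13 in control DEN tumours, where Gys2 was among the higher genes. Stbd1 was among the 4 lower genes in spontaneous tumours (log2 fold change -0.24), a call lost in 14 of 23 fits without a single library. It was also lost with upper quartile factors (adjusted p = 0.115), library totals (0.650), no count filter (0.114) and all groups fitted together (0.0993). Gbe1, the branching enzyme, was lower in all 3 comparisons (log2 fold changes -1.02, -1.15 and -0.73), as was Epm2a, which encodes the glycogen phosphatase laforin (-1.18, -1.31 and -1.29). The 2 phosphoglucomutase genes of the list, named by the symbols of the deposited counts, did not move together. Pgm1 was higher in all 3 (1.10, 1.22 and 1.52). Pgm2 was lower in spontaneous (-0.48) and ALIOS DEN tumours (-0.65) and was not called in control DEN tumours. For diet in livers the list had 1 call, Stbd1 (log2 fold change -0.26, adjusted p = 0.0299), lost with upper quartile factors (adjusted p = 0.0570), library totals (0.101) or all groups fitted together (0.323) and without N5, N18, N19 or N23 (0.0501 to 0.0590).

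In the list of 6 genes of glucose entry and the bisphosphate switch, 2 were higher and 2 lower in spontaneous tumours, 1 and 2 in ALIOS DEN tumours, and 0 and 3 in control DEN tumours, with Pfkfb1 among the lower genes each time. Pfkfb4, another form of the Pfkfb1 enzyme, rose in spontaneous (0.91, SE 0.19) and ALIOS DEN tumours (0.78, SE 0.22).

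Among 22 hormone and transcription regulators, 9 were lower and 1 higher in spontaneous tumours, 8 and 1 in ALIOS DEN tumours, and 6 and 2 in control DEN tumours. The higher genes were Insr in spontaneous tumours (0.36), Irs1 in ALIOS DEN tumours (0.37), and Sik1 (1.09) and Insr (0.62) in control DEN tumours. The Irs1 call was lost in 5 of 8 fits without a single tumour. In spontaneous tumours the largest change was that of Onecut1 (-1.27). Klf15, a factor known to promote gluconeogenic transcription, had log2 fold changes of -0.79, -0.99 and -0.79, and Foxo3 -0.66, -0.81 and -0.45. Cebpa, a factor of hepatocyte metabolism, had -0.55, -0.73 and -0.55, the first lost with library totals (-0.36, adjusted p = 0.0563). Ppargc1a, a coactivator of gluconeogenic genes, was called only in control DEN tumours among these comparisons (-0.73, SE 0.17, adjusted p = 0.00112).

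Marker lists moved along with these genes. The 7 pericentral hepatocyte markers summed to a median of 7327 CPM in control livers and 7731 in ALIOS livers, against 354.4 in spontaneous tumours, 1133 in ALIOS DEN tumours and 354.2 in control DEN tumours. Their most abundant gene was Cyp2e1, or Glul in the ALIOS DEN tumours, and 6, 1 and 7 of the 7 were lower in the 3 comparisons, with 1 higher in ALIOS DEN tumours. The median log2 fold changes of this list were -1.97, 0.31 and -3.32. The ALIOS DEN values include T24 (26750 CPM), and marker fits without it were not run. The 6 periportal markers summed to medians of 2871, 2716, 1466, 1444 and 1559 in the same order of groups, and 3, 2 and 4 of 6 were lower with 1 higher each time.

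Macrophage markers (5 genes, Cd5l the most abundant) summed to medians of 222.8 in control livers, 361.0 in ALIOS livers, 103.6 in spontaneous tumours, 178.8 in ALIOS DEN tumours and 128.0 in control DEN tumours. All 5 were higher on the ALIOS diet in livers, and 4, 1 and 2 were lower in the comparisons of tumours with livers. Proliferation markers (4 genes, led by Mki67) had medians of 2.46 and 5.17 in the livers and 17.2, 44.7 and 25.9 in the tumour groups, and 3, 4 and 4 of 4 were higher. None of the genes of the pericentral, periportal, macrophage or proliferation lists was at 0 throughout a group. The part of these markers in the differences of the 9 genes was not tested.

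The kidney markers bear on Slc2a5, G6pc, Pck1 and Fbp1, which kidney also expresses. They summed to at most 0.108 CPM in control livers, with Kap, Nphs1 and Aqp2 at 0, to at most 6.06 in ALIOS livers (N22), and to medians of 3.93, 11.7 and 8.54 in spontaneous, ALIOS DEN and control DEN tumours. The sums of the tumours came mainly from Slc12a1, with means of 5.23, 8.51 and 9.83 CPM in that order. Of the 8 genes, Nphs1 was at 0 in all spontaneous tumours, Kap and Umod in all ALIOS DEN tumours, and 6 (Kap, Slc34a1, Umod, Nphs1, Slc22a6 and Cdh16) in all control DEN tumours. The part of kidney RNA in the levels of these genes was not tested.

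The fasting response list, 6 genes, summed to medians of 2921 in control livers, 3203 in ALIOS livers, 2532 in spontaneous tumours, 2998 in ALIOS DEN tumours and 3124 in control DEN tumours, with no gene at 0 throughout a group. Its genes did not move as 1 group: 2, 3 and 2 of 6 were higher and 1, 2 and 1 lower in the 3 comparisons. Igfbp1, a fasting gene held down by insulin, rose in all 3 (log2 fold change 4.30, SE 0.61; 5.24, SE 0.57; 4.80, SE 0.57) while Pck1 fell. The labels do not tell the libraries apart by fasting or glucose before harvest, and the part of these was not tested.

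The tumour groups were then compared with each other. The ALIOS DEN tumours take part in each of these comparisons, so they share samples. Between DEN and spontaneous tumours on the ALIOS diet, edgeR called 0 of the 9 genes and 0% of 14845 genes in either direction (0% higher and 0% lower). At an unadjusted p under 0.05 there were 2 of the 9 genes (G6pc and Pfkfb1) and 1079 of all genes (7.27%), and DESeq2 and limma voom called 0 of the 9, with 3 each at the unadjusted threshold. With T23 and T25 left out, 1 of the 9 (Slc2a5) and 10.1% of all genes passed it with edgeR. G6pc had a log2 fold change of 1.83 (SE 0.63, adjusted p = 0.364), with 4 of 8 DEN tumours above every spontaneous tumour. It was 0.95 without T23 and T25 and 1.96 without T24 (adjusted p = 0.354).

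Between ALIOS and control DEN tumours 0 of the 9 genes were called, with 0% of 14944 genes higher and 0.0134% lower with edgeR. At an unadjusted p under 0.05 there were 2 of the 9 (Gys2 and Pygl) and 8.52% of all genes, and DESeq2 and limma voom called 0 of the 9, with 3 and 2 at that threshold. With T23 and T25 left out, 0 of the 9 and 8.84% of all genes passed it with edgeR. Gys2 had a log2 fold change of -0.95 (SE 0.37, adjusted p = 0.489, n = 8 and 5), and 6 of 8 ALIOS DEN tumours lay below every control DEN tumour. G6pc had 1.75 (SE 0.83, adjusted p = 0.594), and 0.87 without T23 and T25. Without T24, Gys2 had -1.10 (adjusted p = 0.245) and G6pc 1.88 (adjusted p = 0.418).

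The interaction asks whether diet acted differently in DEN tumours and in livers, or equally whether the tumour difference depended on diet. With edgeR 0 of the 9 genes were called, against 2.27% of 15606 genes in either direction. At an unadjusted p under 0.05 there were 3 of the 9 (G6pc, Gys2 and Slc2a2) and 16.8% of all genes, DESeq2 called 1 and limma voom 0, with 4 at the unadjusted threshold for limma voom. With T23 and T25 left out, 3 of the 9 (G6pc, Gys2 and Slc2a5) and 17.4% of all genes passed it with edgeR.

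G6pc had the largest interaction of the 9, 2.61 (log2, SE 0.83, adjusted p = 0.0847). DESeq2 called it (2.59, SE 0.79, adjusted p = 0.0337), and edgeR did so without T19 (3.37, adjusted p = 0.041) or T22 (2.77, adjusted p = 0.0473). Without T23 and T25 it was 1.73, and without T24 2.72 (SE 0.84, adjusted p = 0.0521). For Gys2 the interaction was -0.98 (SE 0.35, adjusted p = 0.127), and it was called without T22 (-1.24, adjusted p = 0.0225) or T24 (-1.13, SE 0.34, adjusted p = 0.0485). Without T23 and T25 it was -0.76.

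Clock and pericentral markers also had calls in this comparison. The 10 clock genes summed to a median of 777.2 CPM in control livers, 680.7 in ALIOS livers and 817.3 in control DEN tumours, where Tef was the most abundant, and to 360.5 in ALIOS DEN tumours, where Nr1d1 was. In ALIOS DEN tumours against ALIOS livers 4 of the 10 were higher and 4 lower. In the interaction 3 were called, all higher (Arntl 5.06, SE 1.08; Npas2 7.34, SE 1.45; and Clock 1.61), while 6 of the 10 had negative values and the median of the list was -1.02, and 4 of the 7 pericentral markers were higher too. The pericentral calls include T24, and no fit of these markers without it was run. No clock gene was at 0 throughout a group. T22, which had the most Gys2 of the ALIOS DEN tumours (383.0), also had the highest clock sum (848.5), and Per1, a clock gene, was the third most like gene to Gys2 across libraries, as given next. The hour of harvest is not in the labels, and the part of the clock genes in the Gys2 values was not tested.

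For each of the 9 genes, the 3 genes most like it were sought among 17727 others, by Spearman correlation of log2 CPM over the 49 libraries, which share the groups and the scaling. These values are descriptions and carry no test. Khk was most like Gm35986 (0.951), Nipsnap1 (0.947) and Macrod1 (0.932), and Fbp1 most like Srr (0.952), Aldh8a1 (0.947) and Etfa (0.940). Slc2a5 was most like Sardh (0.905), Stard5 (0.900) and Prkcz (0.891), and Slc2a2 most like Ppara (0.804), Dmd (0.800) and Wee1 (0.793).

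The gluconeogenesis gene Pck1 was most like Klf15 (0.909), also on the list of regulators, followed by Azgp1 (0.907) and Ppm1k (0.892). G6pc was most like Slc25a25 (0.858), Cluh (0.848) and Tymp (0.818), a set that shared no gene with that of Pck1. Pygl was most like Sdha (0.931), Cat (0.930) and Aadac (0.928). Gys2 had the lowest values, with Ngef (0.795), Nrg4 (0.781) and Per1 (0.758), and Pfkfb1 was most like Papss2 (0.868), Slc38a3 (0.833) and Smarca2 (0.831).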

How the data were processed

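RNA-seq of 50 libraries was processed. The authors deposited raw counts of read pairs per gene, made with STAR (2 passes, mm10) for mapping and HTSeq for counting over exons of Gencode M6; versions and strand option are not stated. Total counts ran from 23798251 to 45751398. Libraries were grouped by their labels, and T1 was left out. All genes were tested with edgeR 4.0.16 (limma 3.58.1, R 4.3.3) by glmQLFTest after filterByExpr and TMM, with Benjamini-Hochberg adjustment over all genes tested and a call at an adjusted p under 0.05. Only the compared groups entered each of 7 fits, without covariates. SE is that of the log2 fold change, and SD that of log2 CPM with a prior count of 2. The procedure was tested on simulated data.

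Alternatives were DESeq2 1.42.0, limma voom, RLE factors, upper quartile factors, library totals, no filter beyond a count in at least 1 library, all 6 groups fitted together, T1 included, and leaving out single libraries. Added after the data were seen: T9 left out, T2 and T6 left out, T23 and T25 left out, and each DEN tumour left out of the interaction. Coordinates are those of Gencode M21 on GRCm38, and promoters come from RefSeq. Tables were handled with Python 3.11.15, pandas 2.3.3 and numpy 2.4.6, and drawn with matplotlib 3.10.9. The named genes are the 9 genes; the called genes of each pathway list, or the 6 with the largest change where more were called; the 3 most like genes; and marker genes. The 9 genes and the lists were chosen with earlier results of these data known. Counts are not independent molecules, and each value carries counting error beside the spread between mice.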

Additional observations from a re-analysis of the deposited data

Results flagged for a closer look

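T24 lay far below the other ALIOS DEN tumours for Slc2a2 and Pck1. The gap between T24 and the next tumour was 0.589 of the range of the 8 log2 levels for Slc2a2 and 0.543 for Pck1, beyond the limit of Dixon's test for 8 libraries. In the control DEN tumours T21 lay above the other 4 for Pygl, with a gap of 0.749 of the range, beyond the limit for 5 libraries. These are 3 of 18 pairs of gene and group examined, where chance alone gives about 1 in 20 if pairs are independent. The pairs share libraries, and 2 of the 3 are T24, so no excess over chance can be read from this number. For the 9 genes in ALIOS DEN tumours against ALIOS livers, the values without T24 stand beside those with it.

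The diet difference in DEN tumours differed from that in livers for 3 genes of the pathway lists by the interaction test. They were 1 higher and 1 lower of 14 glycogen synthesis genes and 1 lower of 22 regulators. The other pathway lists had 0 calls, and over all genes 2.27% of 15606 were called. Pgm2, a phosphoglucomutase gene, had -0.49 (log2, SE 0.14, adjusted p = 0.045), Ppp1r3c, a glycogen-targeting subunit of protein phosphatase, 1.67 (SE 0.45, adjusted p = 0.037) and Sik1, a kinase that restrains cAMP-driven transcription, -0.97 (SE 0.24, adjusted p = 0.0253). The Ppp1r3c median was 38.53 CPM in ALIOS and 20.66 in control DEN tumours, against 24.45 and 30.83 in the livers. Ppp1r3c was highest in T23 (118.1), and without T23 and T25 its interaction was 1.24 and was not called. The Sik1 median was 17.64 and 33.99 in the same DEN groups, and 17.09 and 16.37 in the livers. Pgm2 was not called with no count filter (adjusted p = 0.0828), library totals (0.122), all 6 groups together (0.0691) or limma voom (0.0533). Ppp1r3c was not called with no count filter (0.053) or all 6 groups together (0.0687), and Sik1 was not called without T20 (0.0536). Leaving out single DEN tumours undid the call in 7 of 13 cases for Pgm2 and 7 of 13 for Ppp1r3c.

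T1, the library with kidney RNA, entered no comparison. It had more than every control liver of Khk (714.1 CPM), Slc2a5 (230.7), G6pc (546.9), Pck1 (4342) and Fbp1 (1358), and less than each of them of Slc2a2 (220.6), Gys2 (28.09), Pygl (11.44) and Pfkfb1 (1.07).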

How the results depend on the processing

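With T1 included, 3 of the 9 genes were called in spontaneous tumours instead of 7, and the Slc2a5 log2 fold change turned to 0.08 (0.07765, adjusted p = 0.919); T1 held kidney RNA. In the interaction DESeq2 called 1 of the 9 instead of 0, the cause of which was not tested, and leaving out single DEN tumours gave 0 to 2 (1 without T19, 2 without T22, 1 without T24). With other settings the number of the 9 called stayed within 1.5 times in each comparison. Leaving out single libraries (all in the diet and spontaneous comparisons, DEN tumours in the others) gave 0, 6 to 8, 5 to 7, 8, 0 and 0 of the 9 in the other 6 comparisons. Over log2 fold changes of the 9 genes, 821 of 837 leave-one-out values and 509 of 522 values under other settings kept their side of the threshold, counting values not called in either fit as kept whatever their sign; several such values near 0 changed sign. Of the others, 20 lost the call, 8 gained it, and 1 changed sign from a called value (Slc2a5 with T1).

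Counts over all genes moved more. For diet in livers they were 1542, but 623 with all 6 groups fitted together, 2343 without N13, 949 without N17 and 957 without N19. Between DEN and spontaneous tumours they were 0, but 75 with DESeq2, 403 with all groups together and 15 without T22. For diet in DEN tumours they were 2, but 155 with DESeq2, 296 with all groups together, 1 with no filter or without T23 and T25, and 0 to 19 without single libraries (14 without T24, 19 without T22). In the interaction they were 354, but 657 with DESeq2, 220 with all groups together, 224 with limma voom, 174 without T17, 191 without T18, 191 without T20 and 732 without T24. The share of called genes that were higher depended on scaling: 59.9% for diet in livers, but 70.0% with upper quartile factors, 87.1% with library totals and 77.8% with all groups together; 50.9% and 72.9% with library totals in spontaneous tumours; 58.3% and 73.9% in ALIOS DEN tumours; 45.8% and 33.5% with limma voom in the interaction. Library totals moved the median of all genes by 0.18 and 0.14 (log2) in those 2 comparisons, and no filter by 0.13 in the first. No paired analysis was possible, because the labels number livers and tumours in separate series and name no mouse. Whether counting used the strand, the time since fasting and glucose, and the hour of harvest are unknown.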
